A study of Mus musculus with 8 samples.

Results

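A set of 10 genes that mark crypt stem cells or answer to Wnt signalling was followed in sorted Paneth cells (PCs) of the mouse small intestine. They were a given list, matched by symbol, and all 10 are among the 55414 genes of the count table: Lgr5, Olfm4, Ascl2, Axin2, Smoc2, Slc12a2, Rnf43, Znrf3, Ephb2 and Prom1. The data are bulk RNA-seq of 8 libraries, each from the PCs of 1 mouse of the C57BL/6J strain according to the methods of the study, isolated by fluorescence-activated cell sorting. The groups were 4 libraries from mice on Milli-Q water (purified laboratory water) and 4 from mice on water with 25 mM ZnSO4, in both cases for 7 days. By their labels all 8 mice, controls included, received the inflammatory cytokine TNF and PCs were collected 3 hours later, so the design holds no group without TNF. Neither labels nor methods state the age of the mice.

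Wnt ligands bind Frizzled and Lrp receptors and keep β-catenin from degradation, so that it enters the nucleus and activates target genes together with TCF factors. R-spondins strengthen the signal by binding Lgr receptors and removing Rnf43 and Znrf3, membrane ubiquitin ligases that take Frizzled off the cell surface. In the crypt, PCs lie between the stem cells and provide them with Wnt3, EGF and Notch ligands, and PCs themselves express Wnt targets such as Sox9, Mmp7 and Ephb3. Stem cell transcripts in a PC library can therefore belong to PCs, to their progenitors or to neighbouring cells. In bulk RNA a smaller number of cells and less RNA per cell cannot be told apart.

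Library totals ran from 10623658 to 15101627 counts, and expression is given in CPM, the counts relative to the TMM-scaled library size, which makes libraries of different depth comparable. A gene without counts in a library may still be present at up to 3 counts, which equals 0.179 to 0.369 CPM depending on the library and covers counting error only. The PC identity of the libraries was clear: the 10 PC markers summed to 343000 to 619000 CPM per library, whereas the 10 stromal markers summed to 0.08 to 0.834 CPM, with Col1a1, Col1a2, Col3a1, Dcn, Lum and Acta2 at 0 in every library. The library labelled zinc replicate 3 stood apart. Its correlation with the other libraries was 0.847 to 0.903 across genes, while each other library had a partner at 0.97 or above. All 6 TNF-induced genes examined (Tnfaip3, Nfkbia, Nfkbie, Relb, Icam1 and Cxcl1) were lowest in it, with a summed level of 41.0 CPM against 753 to 907 CPM in the other 7 libraries, which goes against its TNF label. Therefore the estimates of the 10 genes and of each gene list are given with and without this library. In Milli-Q water replicates 3 and 4, expression relative to the mean of all libraries was lower for longer transcripts (Spearman rho -0.334 and -0.341), against 0.000523 to 0.254 in the other 6 libraries.

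The 10 genes covered a wide range of levels in PCs. Per kilobase of transcript, the Milli-Q water libraries held most of Olfm4, with 75.7 ± 24.9 CPM per kb (SD, n = 4), followed by Slc12a2 with 29.2 ± 4.76, Smoc2 with 25.0 ± 4.19 and Prom1 with 17.9 ± 4.00 CPM per kb. Ephb2 at 5.67 ± 1.08 and Rnf43 at 3.72 ± 0.833 CPM per kb came next. Lgr5 at 1.96 ± 0.597, Axin2 at 1.31 ± 0.327 and Znrf3 at 1.25 ± 0.346 CPM per kb were low, and Ascl2 was nearly absent at 0.0464 ± 0.0704 CPM per kb. Neighbours in this order that differed by less than the larger of their SDs were Slc12a2 and Smoc2, and Axin2 and Znrf3. The genes also differed in how much they varied. Over the 8 libraries the coefficient of variation of the CPM was 50.3% for Znrf3, 59.4% for Olfm4, 64.4% for Rnf43, 88.4% for Lgr5, 107% for Axin2 and 142% for Ascl2. For Prom1, Ephb2, Slc12a2 and Smoc2 it was only 15.0% to 17.3%, so the list fell into 6 variable and 4 even genes.

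**Figure D1:**
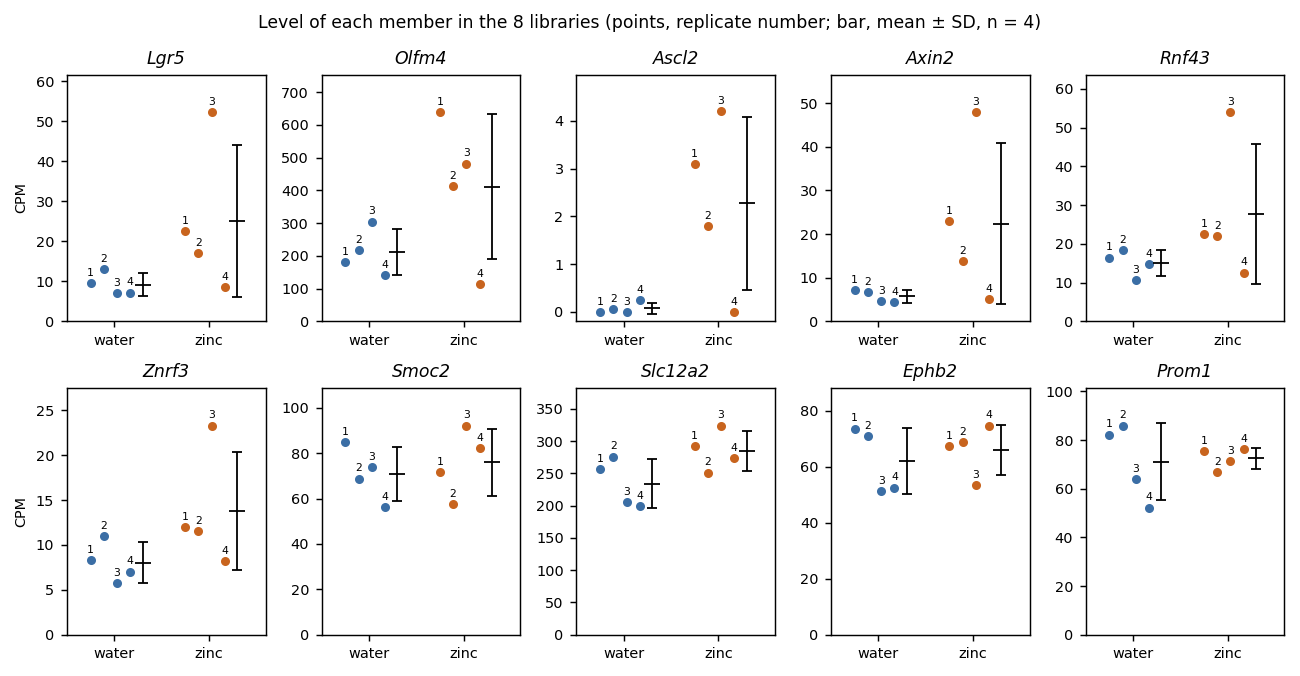
Level in CPM (vertical axis, which includes 0, with a separate scale per gene) of each of the 10 genes in the 4 Milli-Q water (blue) and 4 zinc (orange) libraries. Points are libraries with their replicate number and bars are the mean ± SD (n = 4). In the panels of Lgr5, Olfm4, Ascl2, Axin2, Rnf43 and Znrf3, zinc replicates 1, 2 and 3 lie above all 4 Milli-Q water libraries and zinc replicate 4 does not.

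The zinc group was compared with the Milli-Q water group to ask how the drinking water bears on PC expression under TNF. Not 1 of the 10 genes passed the test: 9 had enough counts for it, and their adjusted p-values ran from 0.485 to 0.956 (edgeR quasi-likelihood test, Benjamini-Hochberg over 10707 genes). Across all genes, edgeR called 0.0% of the 10707 tested, with 1092 at an unadjusted p under 0.05, limma-voom called 0 and DESeq2 called 4, none of them from the list. The estimates of the 9 tested genes were all above 0, with a median log2 fold change (zinc over water) of 0.77, whereas the median of all genes was 0.00621 and 50.8% of them were above 0. Without zinc replicate 3 the median was 0.33 and 8 of 9 were above 0. An unadjusted p under 0.05 with a higher level in zinc was reached by 4 of the 9 (Lgr5, Axin2, Rnf43 and Znrf3), against 6.42% of all genes. Without zinc replicate 3 this was 2 of 9 (Lgr5 and Axin2), against 4.34%. For none of the 10 genes were the groups without overlap, with or without zinc replicate 3. For comparison, all zinc libraries lay above all Milli-Q water libraries in 2.76% of the genes tested, and in 3.89% without zinc replicate 3. Zinc replicate 4 was also left out in place of zinc replicate 3. Then all 10 genes passed the filter on low counts. An unadjusted p under 0.05 with a higher level in zinc was reached by 6 (Lgr5, Olfm4, Ascl2, Axin2, Rnf43 and Znrf3), against 11.0% of all genes. Ascl2 entered this test only because it was high in the zinc libraries that remained, so its p adds no support.

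The split within the zinc group was the main feature of the 6 variable genes. In each of them zinc replicates 1, 2 and 3 all exceeded every Milli-Q water library and zinc replicate 4 did not. This arrangement was singled out here after the values were seen. Zinc replicates 1, 2 and 3 were above every water library in 8.88% of all genes tested, whatever the level of zinc replicate 4. These include the 2.76% in which zinc replicate 4 was above every water library as well. Zinc replicate 3 was the highest library for 7 of the 10 genes, against 29.8% of all genes. Zinc replicate 4 alone was the lowest library only for Olfm4, against 12.0% of all genes. For Ascl2 it tied at 0 counts with Milli-Q water replicates 1 and 3.

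Lgr5, the R-spondin receptor that marks the cycling stem cells at the crypt base, was at 9.64, 13.0, 7.02 and 7.20 CPM in Milli-Q water replicates 1 to 4. In zinc replicates 1 to 4 it was at 22.6, 17.1, 52.3 and 8.55 CPM. Zinc replicate 4 thus lay within the range of the water libraries, and zinc replicate 3 was 7.46-fold above the lowest library. The means were 9.22 ± 2.81 and 25.2 ± 19.0 CPM (SD, n = 4 each), and 16.1 ± 7.08 CPM for zinc without replicate 3. The edgeR estimate of the log2 fold change was 1.44 (SE 0.465, adjusted p = 0.485), and 0.78 (SE 0.292, adjusted p = 0.566) without zinc replicate 3. The gene (ENSMUSG00000020140, 18 exons) lies on the minus strand of chromosome 10, chr10:115286216-115423685 in GRCm39.

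Olfm4, a secreted glycoprotein that is abundant in crypt stem cells, was at 182, 219, 305 and 142 CPM in the Milli-Q water libraries. In the zinc libraries it was at 639, 413, 482 and 113 CPM. Both its highest and its lowest library belonged to the zinc group. Here zinc replicate 3 was not the extreme: the log2 fold change was 0.96 (SE 0.434, edgeR adjusted p = 0.485) with it and 0.88 (SE 0.409, adjusted p = 0.619) without it. The estimate moved further with other zinc libraries left out, to 0.66 without replicate 1 and to 1.27 (adjusted p = 0.117) without replicate 4. The gene (ENSMUSG00000022026, 5 exons) is at chr14:80221521-80260579 on the plus strand.

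Ascl2, the transcription factor that keeps stem cell identity and is itself a Wnt target, had 0, 1, 0 and 3 counts in Milli-Q water replicates 1 to 4. It had 33, 25, 60 and 0 counts in zinc replicates 1 to 4. The water group thus held 4 counts in all and the zinc group 118, or 58 without zinc replicate 3. In zinc replicate 4 the 0 counts allow a level of up to 0.242 CPM, whereas zinc replicates 1, 2 and 3 were at 3.09, 1.79 and 4.21 CPM. Because only 3 libraries held it at an appreciable level, Ascl2 was below the filter on low counts and was not part of the main test. With no filter the edgeR log2 fold change was 4.71 (SE 1.02, adjusted p = 0.256), and DESeq2 gave 4.87 (SE 1.71, adjusted p = 0.428). Without zinc replicate 4 the adjusted p of edgeR was 0.0704, the nearest that the gene came to the threshold in the 8 of 18 settings that tested it. These fitted values rest on only 4 counts in the water group, of which 2 libraries are at 0. Ascl2 (ENSMUSG00000009248, 3 exons) is at chr7:142520564-142523006 on the minus strand.

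Axin2, Rnf43 and Znrf3 are negative feedback targets of the pathway. Axin2, a scaffold of the complex that degrades β-catenin and the most widely used reporter of Wnt activity, was at 7.25, 6.79, 4.68 and 4.4 CPM in the Milli-Q water libraries and at 22.9, 13.8, 47.9 and 5.08 CPM in the zinc libraries. Its means were 5.78 ± 1.45 and 22.4 ± 18.5 CPM (SD, n = 4 each), so that the SD of the zinc group was nearly as large as its mean. The edgeR estimate was 1.94 on the log2 scale (SE 0.543, unadjusted p = 0.00469, adjusted p = 0.485), the highest of the 9 tested genes. Without zinc replicate 3 the estimate was 1.24 (SE 0.373, adjusted p = 0.5), and without zinc replicate 4 it was 2.27 (adjusted p = 0.0786). Axin2 (ENSMUSG00000000142, 11 exons) is at chr11:108811169-108841609 on the plus strand.

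Rnf43 was at 16.5, 18.5, 10.6 and 14.7 CPM in the Milli-Q water libraries and at 22.6, 22.0, 54.0 and 12.6 CPM in the zinc libraries. Its homologue Znrf3 was at 8.34, 11.0, 5.78 and 7.04 CPM against 12.0, 11.5, 23.3 and 8.23 CPM. In both ligases zinc replicate 3 was the highest library by far, while zinc replicates 1 and 2 lay just above the water range. The log2 fold change of Rnf43 was 0.88 (SE 0.380, edgeR adjusted p = 0.485) and that of Znrf3 was 0.77 (SE 0.316, adjusted p = 0.485). Without zinc replicate 3 they were 0.33 (SE 0.221, adjusted p = 0.74) and 0.38 (SE 0.224, adjusted p = 0.695). Neither had an unadjusted p under 0.05 without that library, whereas Lgr5 (0.019) and Axin2 (0.00542) did. Rnf43 (ENSMUSG00000034177, 9 exons) is at chr11:87553548-87626377 on the plus strand and Znrf3 (ENSMUSG00000041961, 9 exons) at chr11:5226324-5394939 on the minus strand.

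The 4 even genes are crypt base transcripts of other kinds. Smoc2, a secreted matrix protein known as a marker of Lgr5 cells, was at 84.9, 68.8, 73.7 and 56.2 CPM in the Milli-Q water libraries and at 71.7, 57.6, 92.2 and 82.3 CPM in the zinc libraries. Its groups overlapped almost fully, and edgeR estimated a log2 fold change at 0.10 (SE 0.183, adjusted p = 0.837) with all libraries and at -0.0038 (adjusted p = 0.995) without zinc replicate 3. Prom1, a membrane glycoprotein of crypt progenitors, was at 82.3, 86.0, 63.9 and 52.3 CPM against 75.4, 67.0, 71.5 and 76.3 CPM in zinc. All 4 zinc libraries of Prom1 fell inside the range of the water libraries, and the log2 fold change was 0.03 (SE 0.172, adjusted p = 0.956), or 0.04 (adjusted p = 0.968) without zinc replicate 3. Ephb2, a receptor tyrosine kinase whose Wnt-driven gradient positions cells along the crypt, was at 73.7, 71.0, 51.3 and 52.6 CPM against 67.3, 68.9, 53.6 and 74.8 CPM in zinc. Its log2 fold change was 0.09 (SE 0.172, adjusted p = 0.844), and 0.18 (adjusted p = 0.787) without zinc replicate 3. In both Ephb2 and Prom1, Milli-Q water replicates 3 and 4 were below replicates 1 and 2, the same libraries in which longer transcripts were lower. With the length trend removed from each library the estimate of Ephb2, whose transcript of 10954 bases is the longest of the list, turned to -0.13.

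Slc12a2, the basolateral Na-K-Cl cotransporter of crypt cells, was at 256, 276, 205 and 199 CPM in the Milli-Q water libraries and at 292, 251, 324 and 273 CPM in the zinc libraries. The means of 234 ± 38.2 and 285 ± 30.8 CPM (SD, n = 4 each) differed by little more than the spread, and zinc replicates 2 and 4 lay within the water range. The log2 fold change was 0.28 (SE 0.165, edgeR adjusted p = 0.521), and 0.22 (SE 0.141, adjusted p = 0.718) without zinc replicate 3. With the length trend removed it was 0.17. In GRCm39, Smoc2 (ENSMUSG00000023886) is at chr17:14499735-14625074, Prom1 (ENSMUSG00000029086) at chr5:44150962-44259395, Ephb2 (ENSMUSG00000028664) at chr4:136374850-136563351 and Slc12a2 (ENSMUSG00000024597) at chr18:58011164-58080812. Annotated genes that overlap the 10 loci held 45 counts at most over the 8 libraries (Gm16401, opposite to Prom1).

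**Figure D2:**
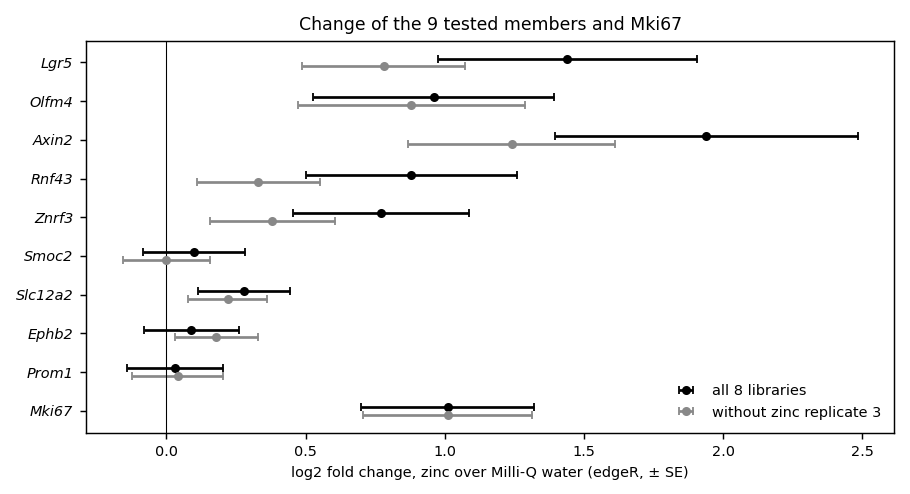
Log2 fold change of zinc over Milli-Q water (horizontal axis, edgeR estimate ± SE) for the 9 tested genes and Mki67, with all 8 libraries (black) and without zinc replicate 3 (grey). The estimates of Lgr5, Axin2, Rnf43 and Znrf3 are lower without that library (0.78, 1.24, 0.33 and 0.38), that of Mki67 is 1.01 in both, and those of Smoc2, Ephb2 and Prom1 lie at 0.10 or less with all libraries.

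Since TCF factors act at target promoters, the 300 bases before the start site of the canonical transcript of each gene (GRCm39, GENCODE M39) were searched on both strands for 3 forms of the TCF core motif. These were CTTTGAT, the form CTTTGTT and the form CTTTGAA, which cannot overlap each other on the same strand. A match was present in 2 of the 10 genes, Olfm4 and Axin2, and in 14.7% of the 21627 protein-coding promoters of the genome. Both are printed here 5′ to 3′ on the plus strand, with the motif in capitals, since they belong to variable genes.
Olfm4, chr14:80237441-80237470: ctacaaaggctaCTTTGATtctgtctcctt
Axin2, chr11:108811604-108811633: ctcggctcgcgcCTTTGAAgtgcacagtta
The Olfm4 match lies at -238 to -232 from the start site, in an intron of 1 of the 4 annotated transcripts. The Axin2 match lies at -22 to -16 and is spanned by 4 of 12 transcripts, in 1 of them by an exon. The other variable genes had none of these strings in this window, and a match is a description of letters and not of binding.

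To see whether the 10 genes follow cell proliferation, their levels were set against Mki67, which encodes a protein of dividing cells. Mki67 was at 10.7, 12.7, 7.38 and 5.44 CPM in the Milli-Q water libraries and at 26.0, 18.9, 18.2 and 10.4 CPM in the zinc libraries. As in the variable genes, zinc replicates 1, 2 and 3 were above all water libraries and zinc replicate 4 was not, but zinc replicate 3 was not the highest. The log2 fold change of Mki67 was 1.01 with all libraries (SE 0.310, edgeR adjusted p = 0.485) and 1.01 without zinc replicate 3 (SE 0.304, adjusted p = 0.5). With the length trend removed the estimate of Mki67, whose transcript has 10270 bases, was 0.84, and 0.83 without zinc replicate 3. The correlations that follow were not repeated with that trend removed.

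For 5 of the 9 genes the log2 CPM had a correlation of 0.748 or more with that of Mki67 over the 8 libraries. None passed the test after adjustment, which could hardly be passed here. The smallest possible exact p is 2.48e-05, and 1 gene alone at that value stays above 0.05 after adjustment over 10706 genes. Pearson's r was 0.823 for Axin2, 0.812 for Slc12a2, 0.798 for Lgr5, 0.769 for Olfm4, 0.748 for Znrf3 and 0.663 for Rnf43. It was 0.521 for Prom1, 0.393 for Ephb2 and 0.218 for Smoc2. The median over the 9 genes was 0.748, that over 24 other proliferation genes 0.764 and that over all 10706 genes -0.00714. The exact permutation p was 0.0101 for Axin2, 0.0159 for Slc12a2, 0.0151 for Lgr5, 0.0284 for Olfm4 and 0.0304 for Znrf3, and these adjusted to 0.293 to 0.347 over the 10706 genes. An unadjusted exact p under 0.05 with a positive r was found for 7.44% of all genes, and an adjusted one for 0.0%. Spearman's rho was 0.905 for Lgr5, Axin2 and Znrf3 (exact p = 0.00456, adjusted p = 0.217), 0.857 for Rnf43 (exact p = 0.0107), 0.786 for Olfm4 (exact p = 0.0279) and 0.690 for Slc12a2 (exact p = 0.0694). For Prom1, Ephb2 and Smoc2 rho was 0.333, 0.214 and 0.0952 (exact p = 0.428, 0.619 and 0.840).

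Without zinc replicate 3 the correlation with Mki67 was higher for Lgr5 and the feedback genes. It was also higher for Ephb2 (0.608 against 0.393) and slightly so for Prom1 (0.543 against 0.521). Over these 7 libraries r was 0.963 for Lgr5 and 0.942 for Axin2 (exact permutation p = 0.000595 and adjusted p = 0.17 for both), 0.885 for Znrf3 (exact p = 0.00794), 0.812 for Slc12a2 (exact p = 0.0312) and 0.803 for Rnf43 (exact p = 0.0294), where 7.78% of all genes had an unadjusted exact p under 0.05 with a positive r. It was 0.741 for Olfm4 (exact p = 0.0575), and the median over the 9 genes was 0.803. For Ephb2, Prom1 and Smoc2 r was 0.608, 0.543 and 0.0602 (exact p = 0.135, 0.206 and 0.886). In the plot of each gene against Mki67, zinc replicate 3 lies well above the line of the other libraries for Lgr5, Axin2, Rnf43 and Znrf3. With the libraries farthest from the Mki67 median left out (zinc replicate 1 and Milli-Q water replicate 4), r was 0.832 for Lgr5, 0.816 for Axin2, 0.832 for Rnf43 and 0.863 for Znrf3 (exact p = 0.0222, 0.0306, 0.0264 and 0.0194). For Olfm4 it was 0.558 (exact p = 0.254) and for Slc12a2 0.696 (exact p = 0.107), so an exact p under 0.05 was no longer reached for these over the 6 libraries. The 3 highest levels of Mki67 were those of zinc replicates 1, 2 and 3. Therefore following Mki67 and differing between the groups cannot be told apart, and with 4 libraries a group the relation was not tested within groups.

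**Figure D3:**
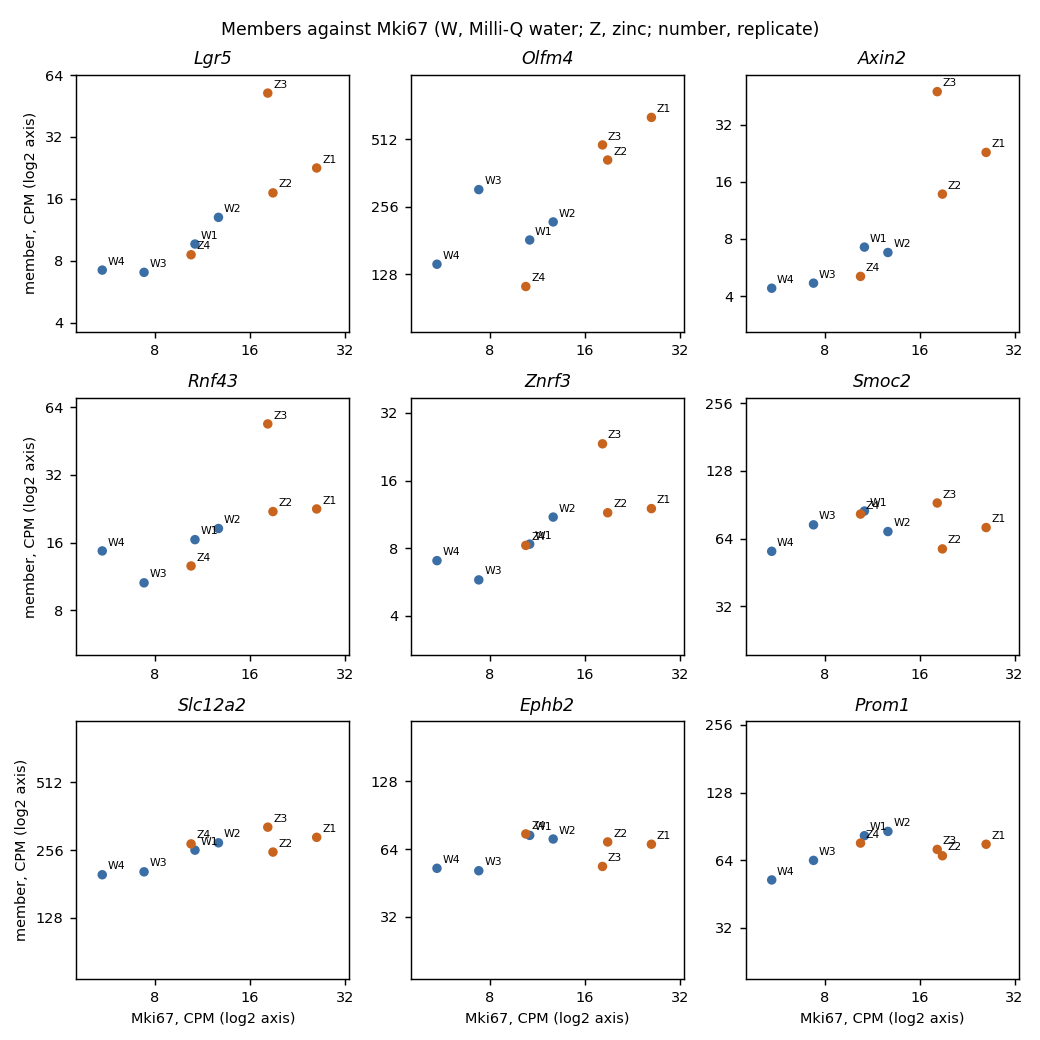
Level of each of the 9 tested genes (vertical axis, CPM, log2 axis) against that of Mki67 (horizontal axis, CPM, log2 axis), 1 point per library (W, Milli-Q water, blue; Z, zinc, orange; number, replicate). Lgr5 and Axin2 are high where Mki67 is high (r of 0.798 and 0.823) with Z3 above the other points, while Smoc2 (r of 0.218), Ephb2 and Prom1 are nearly flat.

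The genes outside the list whose pattern was most like it were found by the correlation with the mean standardised log2 CPM of the 9 genes. Over the 8 libraries these were the mitotic kinase Plk1 and the lysosomal peptidase Tpp1 (r = 0.979 each), the adhesion molecule L1cam (0.975), Cmtm4 (0.973) and Agap1 (0.973). Without zinc replicate 3 they were Pik3r1, a regulatory subunit of PI3 kinase (0.991), Tpp1 (0.991), Plk1 (0.987), Agap1 (0.983) and Cmtm4 (0.970), so 4 genes were shared between both sets of libraries. Plk1 was at 2.39, 2.26, 0.862 and 0.640 CPM in the Milli-Q water libraries and at 3.47, 2.37, 4.42 and 1.37 CPM in the zinc libraries. Mki67 ranked 305 in this order with r = 0.870, and 36 with r = 0.95 without zinc replicate 3. These are the highest of many correlations over few libraries and are a description only.

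Other crypt stem cell markers were above 0 in the same direction, without any call. Of 18 further markers 17 were tested, 16 had a positive estimate, against 50.8% of all genes, and 5 a higher level in zinc at an unadjusted edgeR p under 0.05, against 6.42%, with a median of 0.43 (0.32 without zinc replicate 3). Vdr, the vitamin D receptor, was at 4.80 to 8.34 CPM in the water libraries and at 31.0, 16.7, 44.1 and 6.13 CPM in the zinc libraries (log2 fold change 1.96, SE 0.488, edgeR adjusted p = 0.485, and 1.51 without zinc replicate 3). It shared the low zinc replicate 4 with the variable genes. In contrast, Rgmb and Cdk6 (singled out after their values were seen) had no overlap between the groups, as did 2.76% of all genes with zinc higher. Rgmb, a co-receptor for bone morphogenetic proteins, was at 23.0 to 25.0 CPM in water and at 49.6, 33.8, 142 and 25.7 CPM in zinc. Its log2 fold change was 1.41 and without zinc replicate 3 it was 0.62. Cdk6, a kinase of the G1 phase, was at 3.45 to 5.30 CPM in water and at 9.75, 7.96, 16.6 and 5.97 CPM in zinc, with 1.3 and 0.94. Sox9, a transcription factor of PCs and stem cells and the further marker with the highest CPM (mean 198), was at 91.9 CPM in zinc replicate 3 and at 176 to 238 CPM in the other 7 libraries. Its log2 fold change of -0.21 (SE 0.258) was 0.01 without that library.

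Further Wnt targets were divided. Of 15 genes 13 were tested, 9 were above 0 and 4 below, 2 were higher at an unadjusted p under 0.05 (6.42% of all genes), and the median of 0.43 was 0.12 without zinc replicate 3. Nkd1, an inhibitor of Dishevelled, showed how far 1 library can carry an estimate: it was at 34.9 CPM in zinc replicate 3 and at 6.52 to 8.4 CPM in the water libraries, and its log2 fold change of 1.00 was 0.08 without that library. The other 3 zinc libraries of Nkd1 were at 7.22, 7.67 and 7.90 CPM, inside the range of the water libraries. Mmp7, the PC protease that processes defensins, had the highest CPM of this list (mean 4800). Its edgeR estimate was -0.45 on the log2 scale (SE 0.259, adjusted p = 0.52), and -0.42 without zinc replicate 3. With the length trend removed it was -0.33 (-0.26 without zinc replicate 3).

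Few of the ligands of the pathway were measured in PCs. Of the 13 Wnt ligands and R-spondins, 8 had no count in any library (Wnt3a, Wnt6, Wnt11, Wnt2b and Rspo1 to Rspo4) and only Wnt3 and Wnt5a were tested. Wnt3, the main Wnt of PCs, had a mean of 91.2 CPM, with 142 CPM in zinc replicate 3 against 76.0 to 90.6 CPM in the other 7 libraries (log2 fold change 0.29, SE 0.187, and 0.08 without that library). Wnt5a was low at a mean of 1.04 CPM (0.74, SE 0.516, and 0.40 without that library). Among the 14 tested receptors of 16, 11 were above 0 and 2 were higher at an unadjusted p under 0.05 (6.42% of all genes), with a median of 0.26 (0.15 without zinc replicate 3). Lgr4, the R-spondin receptor of the whole crypt, was at 249 CPM in zinc replicate 3 and at 61.0 to 93.3 CPM elsewhere (0.87, SE 0.352, and 0.30 without that library). Fzd1 had the highest estimate (1.00, and 0.53 without that library) at a mean of 0.755 CPM, and Ptk7 the lowest (-0.12 and -0.03). Fzd3, singled out after its values were seen, had no overlap between the groups (2.76% of all genes), with 0.862 to 1.01 CPM in water and 1.31 to 2.25 CPM in zinc. Its log2 fold change of 0.81 was 0.61 without zinc replicate 3. With the length trend removed Fzd3, whose transcript has 12734 bases, had 0.53 (0.34 without zinc replicate 3).

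The β-catenin destruction complex with Dishevelled was even between the groups. All 14 genes were tested, 5 were above 0 and 9 below, none had an unadjusted p under 0.05 and the median was -0.06 (0.02 without zinc replicate 3). Csnk1a1, the kinase that primes β-catenin for degradation, had the highest CPM (mean 180) and a log2 fold change of -0.06 (SE 0.126), or -0.08 without that library. Dvl2 had the highest estimate (0.53, and 0.25 without that library) and Dvl1 the lowest (-0.26 and -0.21). Dvl1 was at 28.1 to 33.6 CPM in water and at 23.0 to 28.0 CPM in zinc, without overlap, as were 3.12% of all genes with zinc lower. Among the nuclear effectors 12 of 15 were tested, 8 were above 0 and 1 was higher at an unadjusted p under 0.05 (6.42% of all genes), with a median of 0.19 (0.14 without zinc replicate 3). Ctnnb1, which encodes β-catenin, was at 304 to 331 CPM in the water libraries and at 303 to 332 CPM in the zinc libraries, nearly the same range. Tcf7, itself a Wnt target, had 0.84 (0.14 without zinc replicate 3), and the co-activator Bcl9 had -0.19 (0.03 without that library), with 82.7 CPM in zinc replicate 3 and 150 to 226 CPM in the other 7.

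Most cell cycle genes were also above all water libraries in zinc replicates 1, 2 and 3 and not in zinc replicate 4. Pcna, Mcm4, Aurkb, Bub1, Rrm2, Foxm1, Hells and Tk1 did not have this arrangement. Of 26 proliferation genes 25 were tested, 24 were above 0 and 13 had an unadjusted p under 0.05, all higher in zinc, against 6.42% of all genes. Their median was 0.92, and 0.75 without zinc replicate 3. Ccna2, the cyclin of S phase and entry into mitosis, was at 0.862 to 2.38 CPM in water and at 7.59, 8.03, 6.67 and 1.85 CPM in zinc (1.79, SE 0.45, edgeR adjusted p = 0.485, and 1.73 without zinc replicate 3), whereas Pcna, the replication clamp, with the highest CPM of this list (mean 18.6), had -0.10 in both cases. Pcna had an r of -0.377 with Mki67 over all libraries. The summed level of the proliferation genes was 102 to 128 CPM in water, 222, 211 and 219 CPM in zinc replicates 1, 2 and 3, and 95.6 CPM in zinc replicate 4. The summed level of the 10 stem cell and Wnt genes, most of it Olfm4 and Slc12a2, was 536 to 770 CPM in water and 1230, 923, 1200 and 654 CPM in zinc. Zinc replicate 4 was thus the zinc library with the least of both, and the part of cell cycle genes in the result was not tested.

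Enterocyte markers were at 338 to 390 CPM in sum in water and at 466, 417, 838 and 353 CPM in zinc. Of 12, 9 were tested and all were above 0, with a median of 0.86, but the median was 0.00 without zinc replicate 3. Outside zinc replicate 3 most of this sum was Vil1, an actin-bundling protein of the brush border (mean 260 CPM, 0.18, and 0.19 without that library). The highest estimate was that of the brush border enzyme Sis (2.30, and 1.01 without zinc replicate 3), with 14.0 CPM in zinc replicate 3 and 0 counts in zinc replicate 4. Goblet cell markers summed to 10800 to 15700 CPM in water and to 11000 to 15900 CPM in zinc, with 5 of 10 above 0 and a median of 0.18 (0.01 without zinc replicate 3). Of the 10, 4 were higher at an unadjusted edgeR p under 0.05 (6.42% of all genes) and 1 was lower. Without zinc replicate 3, 2 were higher (4.34% of all genes) and 1 was lower. Clca1 and Fcgbp, singled out after their values were seen, had the arrangement of the variable genes: Clca1, a secreted metalloprotease, was at 2.22 to 18.5 CPM in water and at 22.3, 54.9, 82.2 and 8.47 CPM in zinc. Fcgbp, a mucus protein, was at 59.8 to 204 CPM in water and at 318, 246, 1270 and 76.4 CPM in zinc. The other goblet cell markers did not have this arrangement. Tff3, Agr2, Spink4, Spdef and Ccl9 had no zinc library above all water libraries, and Zg16 and Galnt12 had 2 each. The mucin Muc2, also singled out, was at 1950 to 4760 CPM in water and at 8010, 6080, 2640 and 9290 CPM in zinc. Zinc replicate 4 was thus its highest library and zinc replicate 3 its lowest in zinc. Muc2 had 0.84, and 1.10 (edgeR adjusted p = 0.5) without zinc replicate 3. With the length trend removed Muc2, whose transcript has 13916 bases, had 0.55, and 0.81 without zinc replicate 3. Immune markers summed to 14.4 to 26.2 CPM and to 13.3 to 28.3 CPM, with Nkg7 at 0, and the 1 tested of 10, the lysozyme Lyz2, had -0.07 (0.09 without zinc replicate 3). The ligands by which PCs feed stem cells summed to 132 to 146 CPM in water, to 142 to 156 CPM in zinc replicates 1, 2 and 4 and to 265 CPM in zinc replicate 3. Of 6 such ligands 5 were tested, all above 0, with a median of 0.42 (0.06 without zinc replicate 3), and the Notch ligand Dll4 had the highest estimate (0.94, and 0.01 without that library) and the EGF receptor ligand Tgfa the lowest (0.02 and 0.06). PC markers summed to 359000 to 619000 CPM in water and to 343000 to 424000 CPM in zinc, with 9 of 10 below 0 and a median of -0.27 (-0.25 without zinc replicate 3). Among these, the defensin Defa24 had the highest CPM (mean 179000) and -0.29 (-0.30 without that library). With the length trend removed the median of the PC markers was -0.14 (-0.09 without zinc replicate 3). Defa24, whose transcript has 422 bases, then had -0.13 (-0.09 without zinc replicate 3). The part of these other transcripts in the levels of the stem cell and Wnt genes was not tested.

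**Figure D4:**
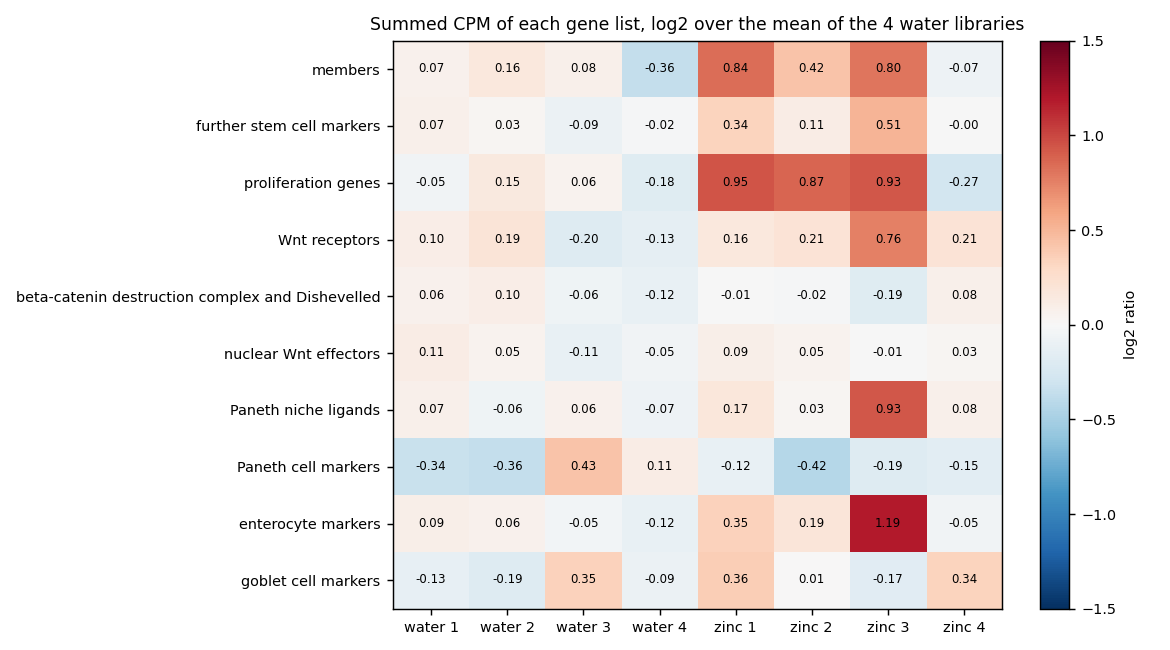
Summed CPM of each gene list (rows) in each library (columns), as the log2 ratio to the mean of the 4 Milli-Q water libraries (colour and printed value; members are the 10 stem cell and Wnt genes). Members and proliferation genes are high in zinc 1, 2 and 3 and not in zinc 4, while enterocyte markers, PC niche ligands and Wnt receptors are high mainly in zinc 3.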

How the data were processed

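RNA-seq libraries of sorted PCs (4 Milli-Q water, 4 zinc, grouped by their labels) were made with a stranded mRNA kit. The authors deposited 1 table of raw counts per Ensembl gene. The submitters' processing notes name FastQC 0.12.0, STAR 2.7.10a, DESeq2 and mm39. The counting program, its strand setting, the annotation release and the rule for reads with several matches are not given in the sources used here. Identifiers were matched to GENCODE M39 (GRCm39): 54749 matched and 665, with 0.00443% of the counts, did not.

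Zinc was compared with water by edgeR 4.0.16 (R 4.3.3; glmQLFTest, TMM factors, filterByExpr, 10707 genes with 99.89% of the counts, Benjamini-Hochberg, threshold 0.05). CPM are on TMM-scaled sizes; fold changes are log2, zinc over water, with their SE. Correlations with Mki67 used log2 CPM (prior count 2) and two-sided exact permutation over all 40320 pairings (smallest p 2.48e-05). For 7 libraries there were 5040 pairings (smallest p 0.000198). The steps were tested on simulated data. Alternatives were DESeq2 1.42.0, limma-voom (limma 3.58.1), other size factors, filters and prior counts, the replicate number as a block, libraries left out, and removal of each library's trend on transcript length.

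The 10 genes and all lists were chosen with earlier results of these data known. Named from each list were the tested gene of highest CPM and those with the highest and lowest estimates; the TNF-induced genes were chosen later. The 28 library pairs all differed beyond sampling noise (chi-square per degree of freedom at least 6.05). The numbers of the replicates did not pair the libraries.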

Additional observations from a re-analysis of the deposited data

Results flagged for a closer look

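In 4 of 50 groups of 4 libraries searched, 1 library lay farther from the others than the 95% critical value of Dixon's test allows (gap to the nearest library over the range of the group), and chance flags about 1 in 20 groups, or 2.5 here. Of these, 3 concerned zinc replicate 3, which was the highest of its group. Its summed level of Wnt ligands and R-spondins, nearly all Wnt3, was 7.19 on the log2 CPM scale against 6.41 to 6.53 in the other zinc libraries (0.843). That of the Wnt receptors, much of it Lgr4, was 9.08 against 8.48 to 8.53 (0.922), and that of the PC niche ligands, which include Wnt3, was 8.05 against 7.15 to 7.29 (0.845). The remaining case was zinc replicate 4, in which the proliferation genes summed to 6.59 against 7.72 to 7.80 (0.938).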

How the results depend on the processing

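The call of 0 genes by edgeR held under every alternative but DESeq2, which called 4 genes (Lrp1 and Slc14a1 higher, Cd74 and Ms4a12 lower, named after their values were seen), none from the list. No gene followed Mki67 past the adjusted threshold under any alternative, which the smallest possible exact p puts almost out of reach over so many genes. The replicate numbers did not pair the libraries (r of the deviations -0.0275 to 0.0266), and with the replicate block 0 genes were called, with 802 at an unadjusted p under 0.05 against 1092. Lgr5, Olfm4, Axin2, Slc12a2, Rnf43, Znrf3 and Mki67 stayed above 0 in all 17 alternatives. With 1 library left out Lgr5 ran from 0.78 to 1.72, Olfm4 from 0.66 to 1.27, Axin2 from 1.24 to 2.27, Slc12a2 from 0.21 to 0.37, Rnf43 from 0.33 to 1.11, Znrf3 from 0.38 to 0.95 and Mki67 from 0.80 to 1.21. By limma-voom with sample weights the estimates were lower for Lgr5 (0.83), Axin2 (1.2), Rnf43 (0.41) and Znrf3 (0.42) but not for Olfm4 (0.98), and the median of the 9 tested genes was 0.41, with 7 above 0. Smoc2, Ephb2 and Prom1 turned sign: Smoc2 was -0.13 by limma-voom and -0.03 without Milli-Q water replicates 3 and 4, and ran from -0.0038 to 0.21 with 1 library left out. Ephb2 was -0.13 with the length trend removed, -0.14 without Milli-Q water replicates 3 and 4, and -0.04 with the length trend removed and without zinc replicate 3, an alternative chosen after seeing the data. Prom1 was -0.05 by limma-voom and -0.22 without Milli-Q water replicates 3 and 4, and ran from -0.09 to 0.13 with 1 library left out. Without Milli-Q water replicates 3 and 4, Prom1, Ephb2 and Smoc2 were all below 0. The cause of these turns was not tested. Of the 9 or 10 genes tested, 4 had an unadjusted edgeR p under 0.05 with all libraries, against 10.2% of all genes in either direction. This was 6 without zinc replicate 4 (17.9% of all genes) and 2 without zinc replicate 3 (8.06%). The 6 include Ascl2, which passed the filter there only through its high zinc libraries. It was 1, again Ascl2, without Milli-Q water replicates 3 and 4 (2.78%). Depth limits Ascl2 most, as 1 count is worth 0.0596 to 0.123 CPM.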

Other observations

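Single markers of other secretory cells also varied among the zinc libraries. Zg16, a goblet cell lectin, was at 6.09 to 22.9 CPM in the Milli-Q water libraries and at 17.7, 48.1, 109 and 9.35 CPM in the zinc libraries (log2 fold change 1.91, edgeR adjusted p = 0.485, and 1.04 without zinc replicate 3). Spdef, a transcription factor of secretory cells, was at 151 to 224 CPM in water and at 113 to 166 CPM in zinc (-0.45, adjusted p = 0.485, and -0.42 without zinc replicate 3), and Spink4, the goblet cell marker with the highest CPM (mean 5780), had -0.41 (-0.39). With the length trend removed, Spink4 had -0.25 (-0.19 without zinc replicate 3). Of the 10 enteroendocrine and tuft markers 3 were tested. Tac1, the precursor of substance P, was at 15.0, 7.38, 19.0 and 4.56 CPM in water and at 0.469, 4.38, 0.14 and 6.29 CPM in zinc (-2.0, adjusted p = 0.485, and -1.57 without zinc replicate 3), and Dclk1, a tuft cell kinase, had 1.03 (0.36). Among the PC markers Mptx2, a mucosal pentraxin, had the lowest estimate (-0.83, adjusted p = 0.485, and -0.81 without zinc replicate 3), with 15500 CPM in Milli-Q water replicate 3 and 3490 to 5630 CPM in the other 7 libraries. Itln1 had the highest (0.05 and 0.01). With the length trend removed, Mptx2 had -0.67 (-0.61 without zinc replicate 3) and Itln1 had 0.13 in both cases.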
